A study of Mus musculus with 2 samples.

Results

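Homeostatic CXC chemokines are secreted proteins that many tissues make without an inflammatory trigger, and 3 of them were examined here with their receptors in mouse limb muscle. The members were chosen by gene symbol, and they were the ligands Cxcl12, Cxcl13 and Cxcl14 and the receptors Cxcr4, Ackr3 and Cxcr5, 6 of the 32285 genes counted. All 6 symbols were found in both libraries. The set was proposed with cell type levels and MVC vs. DMSO values of these libraries already known, so every level and ratio below is a description and none was tested.

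The single-cell RNA-seq data came from limb muscle mononuclear cells of aged C57BL/6 mice, sorted live after the red blood cells had been lysed. There was 1 library from DMSO-treated mice, the vehicle control, and 1 library from mice given MVC, which is the small-molecule drug Maraviroc. Treatment was by intraperitoneal injection in aged wild-type animals in both groups. The labels give no dose, the study's text describes these libraries directly after its high-dose, short-term schedule, and the number of mice pooled per library was not given in the sources used here. With 1 library per treatment, animal-to-animal spread cannot be measured, and all intervals are 95% CIs that cover counting error only.

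CXCL12 holds and guides cells that carry CXCR4, such as leukocytes and progenitor cells, and it is made by vascular and stromal cells. ACKR3 binds CXCL12 without classical G protein signalling and removes it from the surroundings. CXCL13 attracts CXCR5-bearing B cells and follicular T cells, and is known from stromal cells of lymphoid follicles and from tertiary lymphoid tissue. CXCL14 is a conserved chemokine of epithelia and fibroblasts whose receptor is not settled.

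The DMSO library held 5812 barcodes and the MVC library 6047. After cells with under 500 genes or more than 10% mitochondrial counts were left out, 5437 DMSO cells and 5454 MVC cells remained, with a median of 5802 and 5195 unique molecular identifiers (UMIs, counts of separate RNA molecules) per cell. The 2 libraries shared 8 of the kept barcodes. Cells were clustered on both libraries together without the 6 members among the genes used, and 11 classes had at least 50 cells in each library. Fibro-adipogenic progenitor (FAP)-like cells, the fibroblasts of muscle, numbered 1217 in the DMSO library and 1440 in the MVC library, and all 11 of their naming markers were detected in at least 20% of cells in both. Endothelial cell (EC)-like cells numbered 2202 and 2069. A second view took every cell with at least 1 UMI of Pdgfra, the receptor that marks FAPs, which gave 1161 DMSO and 1332 MVC cells. A level is the sum of a gene's UMIs in a class per 1000000 UMIs of the class, written CPM.

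The genes lie apart in the mouse genome build GRCm38. Cxcl12 spans chr6:117168535-117181367 on the plus strand, Cxcl13 chr5:95956951-95961068 on the plus strand and Cxcl14 chr13:56288643-56296551 on the minus strand. Among the receptors, Cxcr4 lies at chr1:128588199-128592293 on the minus strand and Ackr3 at chr1:90203980-90216751 on the plus strand. Cxcr5 lies at chr9:44511787-44561877 on the minus strand and overlaps Bcl9l on the other strand, with no exon shared on the same strand. The other 5 overlapped no annotated gene.

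The 250 bases before the start site of each ligand gene are shown because the MVC vs. DMSO ratios of the ligands were unlike in the FAP-like class. They are from RefSeq in build GRCm38.p6, written 5′ to 3′ on the strand of the gene, with capitals for a match of TATAAA (the TATA box) on either strand. The windows are chr6:117168285-117168534 for Cxcl12, chr5:95956689-95956938 for Cxcl13 and chr13:56296552-56296801, minus strand, for Cxcl14.
Cxcl12: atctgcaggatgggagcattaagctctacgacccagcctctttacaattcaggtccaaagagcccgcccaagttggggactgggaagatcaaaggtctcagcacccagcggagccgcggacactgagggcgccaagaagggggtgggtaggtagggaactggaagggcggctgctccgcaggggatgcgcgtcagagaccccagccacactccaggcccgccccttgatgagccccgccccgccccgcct
Cxcl13: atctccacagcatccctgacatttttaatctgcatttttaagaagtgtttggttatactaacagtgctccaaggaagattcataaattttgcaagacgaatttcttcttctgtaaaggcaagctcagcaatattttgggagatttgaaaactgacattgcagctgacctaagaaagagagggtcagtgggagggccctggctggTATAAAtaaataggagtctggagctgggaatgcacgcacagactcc
Cxcl14: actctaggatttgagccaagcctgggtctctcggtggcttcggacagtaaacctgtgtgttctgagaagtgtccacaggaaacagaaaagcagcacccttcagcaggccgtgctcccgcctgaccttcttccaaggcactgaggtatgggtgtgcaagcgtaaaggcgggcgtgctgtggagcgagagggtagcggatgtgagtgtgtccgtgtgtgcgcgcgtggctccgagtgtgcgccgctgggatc
The Cxcl13 window held 1 match, close to its 3′ end, and the Cxcl12 and Cxcl14 windows held none. Of the receptor windows, which are not shown, that of Cxcr4 held 2 matches and that of Ackr3 held 1. Of 32851 mouse promoter windows of this length, 12.4% held TATAAA on either strand. The Cxcl13 window was also poor in CG pairs, with 2 against 14 for Cxcl12 and 16 for Cxcl14, and its GC content was 42.0% against 64.4% and 59.6%. The median window had 6 CG pairs and a GC content of 52.4%. These are descriptions of letters in 1 window, and no binding was measured.

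**Figure D1:**
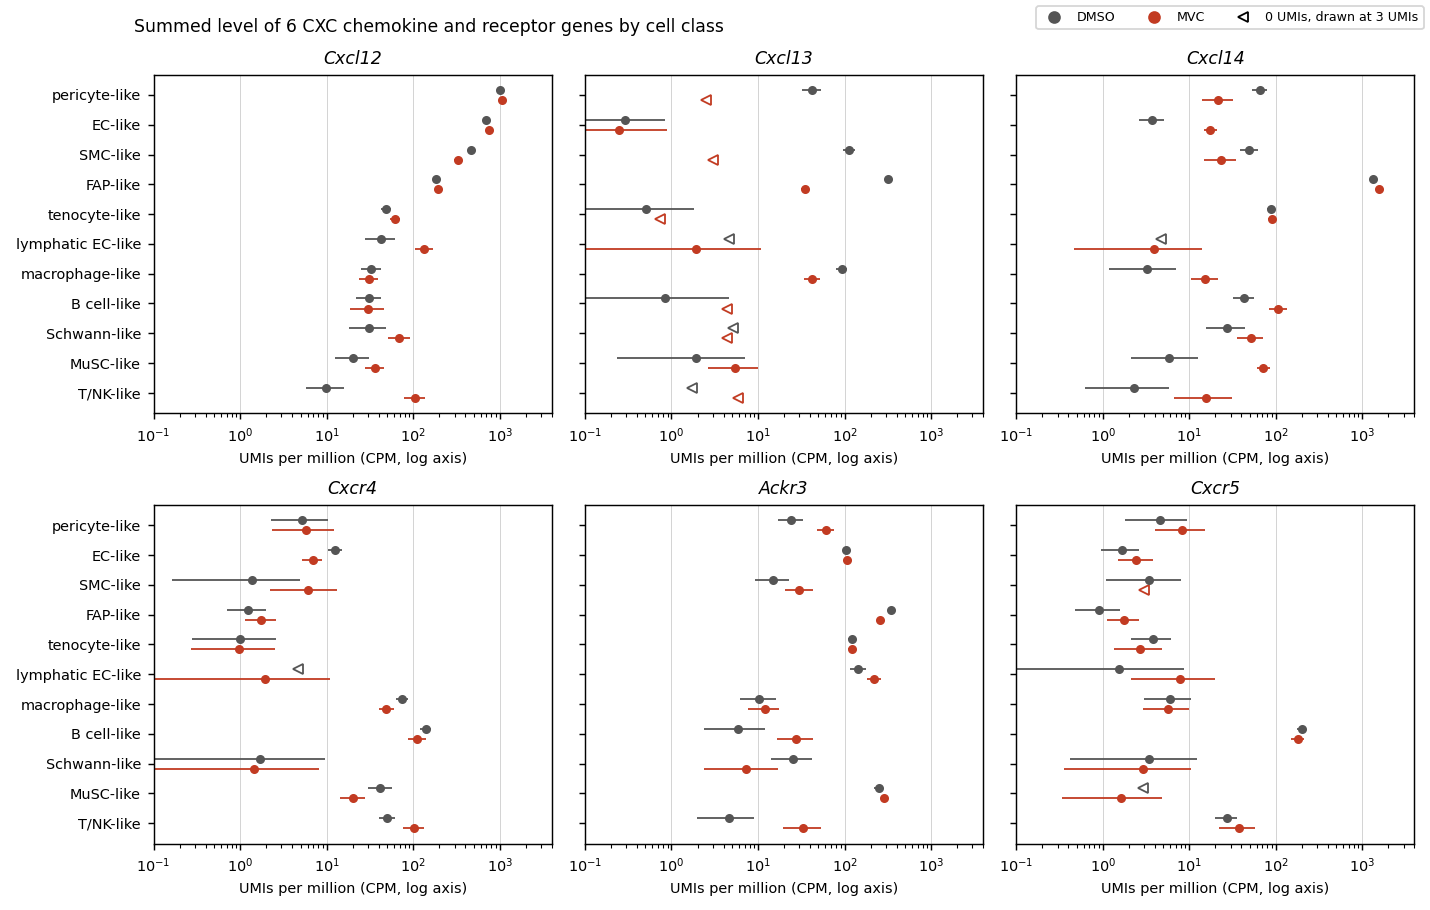
Level of each member in each cell class (CPM on a log axis) in the DMSO library (grey) and the MVC library (red), with lines for the 95% counting interval and open triangles at 3 counts for a library with 0 UMIs. Cxcl12 led in pericyte-like and EC-like cells, Cxcl13 and Cxcl14 in FAP-like cells, Ackr3 in FAP-like and MuSC-like cells, and Cxcr4 and Cxcr5 in B cell-like cells of the DMSO library.

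Across cell types, Cxcl12 had the broadest pattern of the ligands. In the DMSO library its level was 997 CPM in pericyte-like cells, 693 CPM in EC-like cells, 465 CPM in smooth muscle cell (SMC)-like cells and 181 CPM in FAP-like cells. The MVC library gave the same order of these 4 classes, at 1051, 743, 330 and 195 CPM. EC-like cells, the most numerous class, held 58.0% and 54.7% of all Cxcl12 UMIs. Below these 4 classes came tenocyte-like cells at 48.5 and 61.6 CPM, and macrophage-like cells at 32.9 and 30.9 CPM, close to the B cell-like cells at 30.8 and 30.4 CPM. The B cell-like class should lack the gene and served as a reference for free RNA.

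Among the EC-like clusters, Cxcl12 was highest in the capillary-like cluster. Its level there was 1603 CPM (DMSO) and 1472 CPM (MVC), against 272 and 303 CPM in the arterial-like cluster and 147 and 202 CPM in the venous-like cluster. A pair of EC-like clusters that no subset markers named lay between, at 758 and 871 CPM and at 825 and 703 CPM. A further cluster of 89 and 50 cells, at a median of 1235 UMIs, was given no class. Its leading genes included Timp4 and Gpihbp1 of the capillary marker list. Cxcl12 stood there at 806 and 1450 CPM, a ratio of 1.80 (1.34-2.41). The MVC over DMSO ratio was 0.919 (95% CI 0.871-0.970) in capillary-like cells, 1.12 (0.985-1.27) in arterial-like cells and 1.37 (1.17-1.61) in venous-like cells. Over all EC-like cells the ratio was 1.07 (1.04-1.11). The capillary-like cluster held 404 DMSO and 650 MVC cells. Of the EC-like pair without a subset name, the first held 806 and 507 cells at a ratio of 1.15 (1.07-1.23). The second gave 0.852 (0.786-0.923). The part of the mix of clusters in the class ratio was not tested. Cxcl12 was detected in 67.5% of EC-like cells in both libraries. When each cell was thinned to 2000 UMIs, to set the depths equal, the shares were 55.3% (53.1-57.5%) and 60.1% (57.5-62.6%), with 239 and 577 shallower cells left out. The share in B cell-like cells after thinning was 0.985% (0.120-3.51%) and 3.26% (0.678-9.23%). Median depths were 3812.5 and 3275 UMIs in EC-like cells and 5088 and 5412 UMIs in B cell-like cells.

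The mural cells that wrap vessels differed between their kinds. In pericyte-like cells the Cxcl12 ratio was 1.05 (0.978-1.14). In SMC-like cells it was 0.711 (0.622-0.812), and this class joined a cluster led by Ccl19 and Ccl11 with a cluster led by Acta2 and Myh11, the contractile genes of vascular muscle. The Ccl19/Ccl11-led cluster gave 713 and 506 CPM, a ratio of 0.709, and the contractile cluster 126 and 163 CPM, a ratio of 1.29 (0.936-1.78). Only the first of the clusters was therefore lower in the MVC library beyond counting error. For the class the ratio was 0.849 without the 3 richest cells and 0.912 as the mean of cells, and it turned to 1.75 when cells were classed by their own markers.

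In FAP-like cells Cxcl12 was spread thinly over many cells. It was detected in 64.1% and 59.0% of cells, and the median was 1 UMI per cell in both libraries. The level was 181 CPM (DMSO) and 195 CPM (MVC), a ratio of 1.07 (1.01-1.13), but a single MVC cell held 185 of the 2665 UMIs, and the ratio without the 3 richest cells of each library was 0.984. The median gene of FAP-like cells had a log2 ratio of 0.13, so that relative to the other genes Cxcl12 was on the lower side. Its level was thus not told apart between the libraries. Among the 4 FAP-like clusters, Cxcl12 was lowest in clusters 10 and 16, at 93.1 and 103 CPM in the DMSO library, and higher in clusters 2 and 5, at 207 and 242 CPM.

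T/NK-like cells showed the largest Cxcl12 ratio, from few molecules. There were 17 UMIs in 196 DMSO cells and 53 UMIs in 61 MVC cells, 9.79 and 103 CPM, a ratio of 10.6 (6.02-19.5). The 3 richest cells held 88.2% of the DMSO UMIs and 64.2% of the MVC UMIs. The ratio was 34.2 without those cells, 69.2 with doublets removed and 20.3 after thinning, and higher in the MVC library in each. Endothelial and fibroblast markers moved in the same direction in these cells. All 8 EC markers had UMIs in both libraries, with a summed level of 316 and 855 CPM, and all 11 FAP markers had UMIs, with 587 and 2755 CPM, of which Dcn made 252 and 1460 CPM. Their part in the result was not tested. In lymphatic EC-like cells the ratio was 3.19 (2.02-5.17), at 41.9 and 134 CPM, where 1 MVC cell with 30 UMIs was also called a doublet, a droplet holding more than 1 cell.

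Cxcl13 was found mainly in FAP-like cells and was lower there with MVC. In Pdgfra-expressing cells, 3515 UMIs were counted in the DMSO library and 342 in the MVC library. The levels were 276 CPM (267-285) and 25.04 CPM (22.5-27.8), so that Cxcl13 was 11.01-fold (9.85-12.3) lower with MVC. In FAP-like cells the counts were 4169 and 473 UMIs, and the levels 318 CPM (309-328) and 34.5 CPM (31.5-37.8), a fold of 9.21 (8.37-10.2). Over all cells of each library the level was 118 and 16.2 CPM. FAP-like cells held 91.0% of all Cxcl13 UMIs in the DMSO library and 82.4% in the MVC library.

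Of the 6 members, 4 had at least 50 UMIs in FAP-like cells, and Cxcl13 alone was past 2-fold, on the lower side. Over the 12792 genes read in these cells, 1.07% were more than 2-fold lower, and Cxcl13 was the 11th lowest. In Pdgfra-expressing cells 1.22% of 13034 genes were more than 2-fold lower, and Cxcl13 was the 9th lowest. Since the set was proposed with this contrast known, nothing is read from its place in that order.

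The Cxcl13 difference was one of both the share of positive cells and the amount in each. Cxcl13 was detected in 170 of the 1217 FAP-like DMSO cells, 14.0% (12.07-16.05%), and in 61 of 1440 MVC cells, 4.24% (3.26-5.41%). After thinning the shares were 9.05% (7.47-10.8%) and 2.35% (1.60-3.32%), a difference of -6.70 percentage points (-8.61 to -4.91, Newcombe interval). The median of the positive cells was 8 UMIs in the DMSO library and 2 UMIs in the MVC library. Median depths of FAP-like cells were 10288 and 9175.5 UMIs. Cxcl13 was near 0 in the classes that stand for free RNA. EC-like cells, at a median of 3812.5 and 3275 UMIs, had 3 UMIs in 2202 DMSO cells and 2 UMIs in 2069 MVC cells. B cell-like cells had 1 UMI in 207 DMSO cells and 0 UMIs in 106 MVC cells, which allows a share of cells with a UMI of up to 2.83% at 3 counts of the total.

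**Figure D2:**
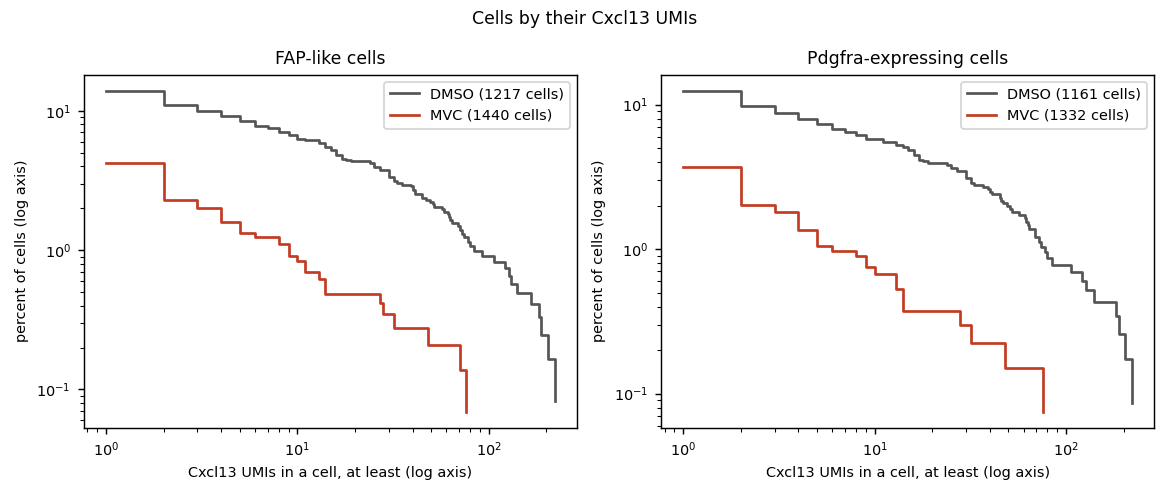
Share of cells (percent, log axis) with at least the number of Cxcl13 UMIs on the x axis (log axis), for FAP-like cells on the left and Pdgfra-expressing cells on the right. FAP-like cells with 20 or more UMIs made up 4.19% of DMSO cells and 0.417% of MVC cells.

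Few cells carried most of the message. In the DMSO library 51 of 1217 FAP-like cells had 20 or more Cxcl13 UMIs, and they held 84.0% of the UMIs of the class. In the MVC library 6 of 1440 cells did, and they held 59.6%. The richest cell had 221 UMIs in the DMSO library and 76 in the MVC library. Without the 3 richest cells of each library the ratio in FAP-like cells was 0.0749, against 0.109 (0.0985-0.119) with them. The low ratio therefore did not rest on the 3 richest cells.

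The 4 FAP-like clusters did not share the difference equally. Cluster 10, led by Sdk1, Adgrd1 and the hyaluronan synthase Has1, held most Cxcl13, with 3010 UMIs in 222 DMSO cells and 207 UMIs in 226 MVC cells. The levels were 898 and 76.2 CPM, 11.8-fold lower with MVC, and the share of positive cells was 41.9% and 11.1%, or 28.0% (22.1-34.4%) and 5.05% (2.55-8.85%) after thinning. Cluster 16, led by Nova1 and by Pi16 and Cd248, markers of adventitial fibroblasts, gave 316 and 16.3 CPM from 319 and 22 UMIs, a ratio of 0.0515 (0.0318-0.0794). Cluster 2, led by Smoc2 and Cxcl14, gave 135 and 5.27 CPM, a ratio of 0.0391 (0.0266-0.0555), with 72.0% of its 592 DMSO UMIs in 3 cells. Without the 3 richest cells of each library the ratios were 0.0481 in cluster 10, 0.0296 in cluster 16 and 0.0674 in cluster 2, and after thinning 0.0435, 0.0442 and 0.0725.

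Cluster 5 was the exception when all UMIs were summed. It was led by the interferon-inducible gene Ifi205 and by Ptx3, and gave 57.0 and 62.8 CPM from 248 and 211 UMIs, a ratio of 1.10 (0.913-1.33). Its 3 richest cells held 44.8% of the DMSO and 73.9% of the MVC UMIs, and without them the ratio was 0.521. It was 0.884 after thinning and 0.889 as the mean of cells. The libraries also mixed the clusters in different shares. Cluster 2 made up 40.3% of DMSO and 50.1% of MVC cells of the class, cluster 5 34.1% and 24.4%, cluster 10 18.2% and 15.7%, and cluster 16 7.40% and 9.72%. With each MVC cluster weighted by its UMIs in the DMSO library, Cxcl13 was 43.4 CPM in the MVC library, 7.34-fold below the DMSO level.

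**Figure D3:**
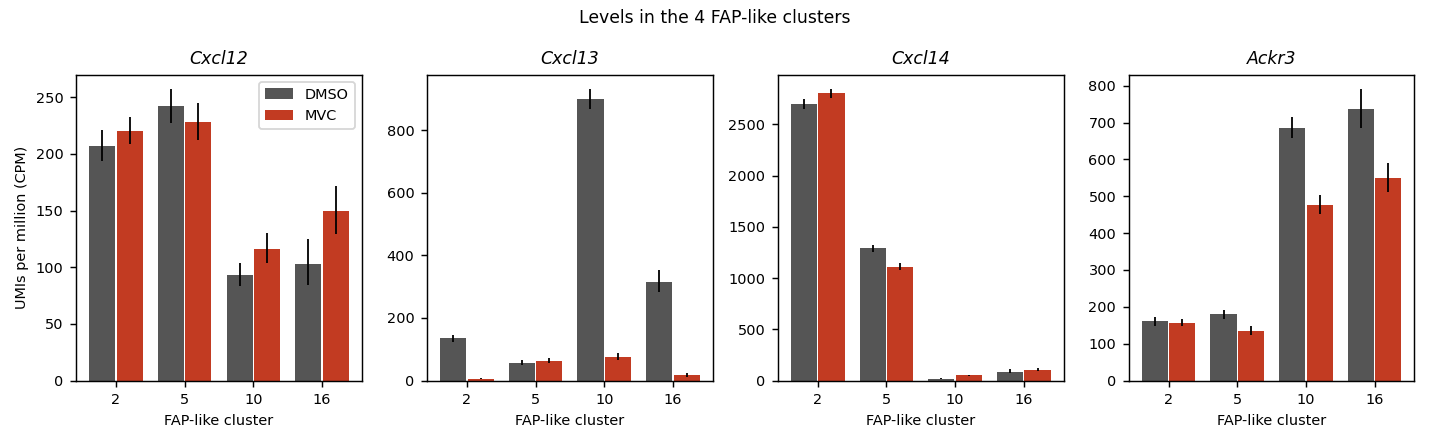
Levels of Cxcl12, Cxcl13, Cxcl14 and Ackr3 (CPM, bars from 0, each panel with its own axis) in the 4 FAP-like clusters of the DMSO library (grey) and the MVC library (red), with 95% counting intervals. Cxcl13 was lower with MVC in clusters 2, 10 and 16 but not, by summed UMIs, in cluster 5. Without the 3 richest cells of each library the Cxcl13 ratio in cluster 5 was 0.521. Cxcl14 was highest in cluster 2 (2697 and 2804 CPM) where Ackr3 was near its lowest.

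The cells rich in Cxcl13 could be described by their other genes. In the DMSO library 103 FAP-like cells had 5 or more Cxcl13 UMIs, and 1047 had none, with a median depth of 14544 and 9751 UMIs. In the MVC library 19 cells were rich and 1379 had none, at 12593 and 9077 UMIs. Cluster 10 held 39 of the 51 DMSO cells with 20 or more UMIs, 26 of the 52 with 5 to 19, and 129 of the 1047 with none. In the MVC library it held 2 of 6, 9 of 13 and 201 of 1379. Differences between rich and other cells were therefore not separated from differences between the clusters. The genes named here were chosen after their values were seen, by their fold in the DMSO library. The higher ones were taken among 2496 genes with at least 200 UMIs in these DMSO cells that were also detected in most of the rich DMSO cells. The 12 highest were Opcml, Vegfa, Ifi27l2a, Kcnk5, C4b, Car8, Igfbp5, Slc4a4, Gm12840, Procr, Limch1 and Ampd3. Of these, Gm12840 and Procr were also leading genes of cluster 10 against the other FAP-like clusters. Procr, the endothelial protein C receptor, stood at 2031 CPM in rich and 585 CPM in other DMSO cells, a log2 difference of 1.78, and the MVC library gave 2.02. C4b, a complement component, stood at 325 and 82.6 CPM, a log2 difference of 1.85, and the MVC library gave 3.15. For 10 of the 12 genes the MVC cells differed in the same direction, the exceptions being Igfbp5 and Limch1. Of all 2496 genes, 47.4% were higher in the rich MVC cells. The 2496 and the 12 genes were both set by the rich DMSO cells, so nothing is read from this count.

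The lower side was led by matrix genes and by another member of the set. Mgp, the matrix Gla protein that inhibits calcification, was at 45.9 CPM in rich DMSO cells and 1637 CPM in cells without Cxcl13, a log2 difference of -4.88, and the MVC library gave -4.72. Cxcl14 was at 117 and 1602 CPM, a log2 difference of -3.67, and the MVC library gave -1.86. With Col8a1, Thbs1, Cilp and Smoc2 they made up the 6 lowest genes of a separate pool, which had a higher limit on UMIs and no rule on detection. All 6 were lower in both libraries, and the share of that pool that was lower in the MVC library was not counted. Pdgfra itself stood at 282 and 398 CPM in the DMSO library. Pi16 and Dpp4 had log2 differences of 1.60 and 1.49 in the DMSO library, against -0.31 and 0.07 in the MVC library. Counted by cell after thinning, Cxcl14 was detected in 14.2% of DMSO cells with Cxcl13 and in 46.1% of those without. In the MVC library, where 31 cells had Cxcl13 after thinning, the shares were 32.3% and 50.3%. Ackr3 went the other way in the DMSO library, at 42.5% and 27.9%, and not in the MVC library, at 22.6% and 26.7%. Cells share library and depth, so these are descriptions of 2 libraries.

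Outside the FAP-like class, Cxcl13 sat in single cells. In SMC-like cells there were 166 UMIs in the DMSO library, 94.6% of them in 3 cells with 69, 51 and 37 UMIs, and 0 UMIs in the MVC library. Those 3 cells also carried 86, 13 and 186 UMIs of Dcn, the fibroblast proteoglycan decorin. In pericyte-like cells all 64 DMSO UMIs were in 1 cell that was called a doublet and had 117 Dcn UMIs, and the MVC library had none. Set against a floor of 3 counts in the MVC library, Cxcl13 was at least 37.4-fold lower in SMC-like cells and at least 16.7-fold lower in pericyte-like cells, which here compares 1 to 3 cells with none. In macrophage-like cells the levels were 93.2 and 41.9 CPM, a ratio of 0.449 (0.344-0.584), with 79.8% and 96.6% of the UMIs in the 3 richest cells. That ratio ran from 0.0736 without those cells to 0.851 as the mean of cells. In the MVC library the macrophage-like level was the highest of the 11 classes, above FAP-like cells at 34.5 CPM. Pdgfra-expressing cells outside the FAP-like class held 155 DMSO UMIs, 94.8% of them in 3 cells, and 0 MVC UMIs. The macrophage-like DMSO cell with 46 UMIs was called a doublet and had 186 Dcn UMIs. The other macrophage-like cells with 10 or more Cxcl13 UMIs had at most 1 Dcn UMI. Their UMIs of the macrophage marker C1qa ran from 0 to 40. These few cells held most of the Cxcl13 outside FAP-like cells, and muscle stem cell-like cells had 2 and 10 UMIs.

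Cxcl14 was a gene of FAP-like cells in both libraries. They held 96.3% of its UMIs in the DMSO library and 95.8% in the MVC library. The level was 1344 CPM and 1576 CPM, a ratio of 1.17 (1.15-1.20), and in Pdgfra-expressing cells 1331 and 1502 CPM, a ratio of 1.13. It was detected in 54.2% (51.4-57.1%) and 60.8% (58.2-63.3%) of FAP-like cells, and in 43.2% (40.4-46.1%) and 49.8% (47.1-52.6%) after thinning. In the B cell-like reference the thinned shares were 1.48% (0.306-4.26%) and 3.26% (0.678-9.23%). Cells with 20 or more UMIs numbered 258 and 340 and held 85.4% and 83.9% of the Cxcl14 UMIs of the class.

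The Cxcl14 ratio lay on both sides of 1 among the FAP-like clusters. Cluster 2, with 490 DMSO and 722 MVC cells, had 2697 and 2804 CPM, a ratio of 1.04. Cluster 5 had 1291 and 1112 CPM, a ratio of 0.861, and cluster 16 had 88.1 and 105 CPM. Cluster 10, the richest in Cxcl13, had the least Cxcl14, with 18.2 and 49.7 CPM, a ratio of 2.73. With each cluster weighted by its UMIs in the DMSO library, the MVC level was 1329 CPM and the ratio 0.989. That value joins cluster ratios of both directions. The part of the mix of clusters in the class ratio was not tested.

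Beyond fibroblasts, Cxcl14 values were small and came from few cells. Tenocyte-like cells had 88.1 and 90.5 CPM. Muscle stem cell (MuSC)-like cells had 6 UMIs in the DMSO and 132 in the MVC library, 5.82 and 72.1 CPM, a ratio of 12.4 (5.54-34.3). The 3 richest MVC cells, with 67, 20 and 8 UMIs, were all called doublets and held 212, 119 and 44 Dcn UMIs. The ratio was 2.87 with doublets removed, 2.83 after thinning and 2.01 with cells classed by their own markers, 8.12 as the mean of cells, and 21 without the 3 richest cells of each library. FAP markers summed to 564 and 1968 CPM in MuSC-like cells, with 8 of 11 detected in the DMSO library, where Pdgfra, Lum and Smoc2 were at 0, and 11 of 11 of the MVC library. Among EC-like cells the counts were 38 and 143 UMIs, a ratio of 4.75 (3.30-6.98), with 53 of the MVC UMIs in 1 cell called a doublet. The ratio was 2.61 with doublets removed, 2.75 without the 3 richest cells, 2.96 as the mean of cells, 3.12 after thinning and 2.31 by own markers. FAP markers there summed to 823 and 972 CPM. In B cell-like cells the levels were 42.5 and 107 CPM, beside FAP markers summing to 507 and 3430 CPM. Pericyte-like cells went the other way, with 101 and 26 UMIs, a ratio of 0.329 (0.205-0.510), and the 3 richest DMSO cells carried 306, 207 and 136 Dcn UMIs. The part of fibroblast RNA in these values was not tested. Cxcl14 was the 1 member more than 2-fold higher with MVC in MuSC-like cells, where 3.82% of all genes read were, and in EC-like cells, where 2.66% were.

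**Figure D4:**
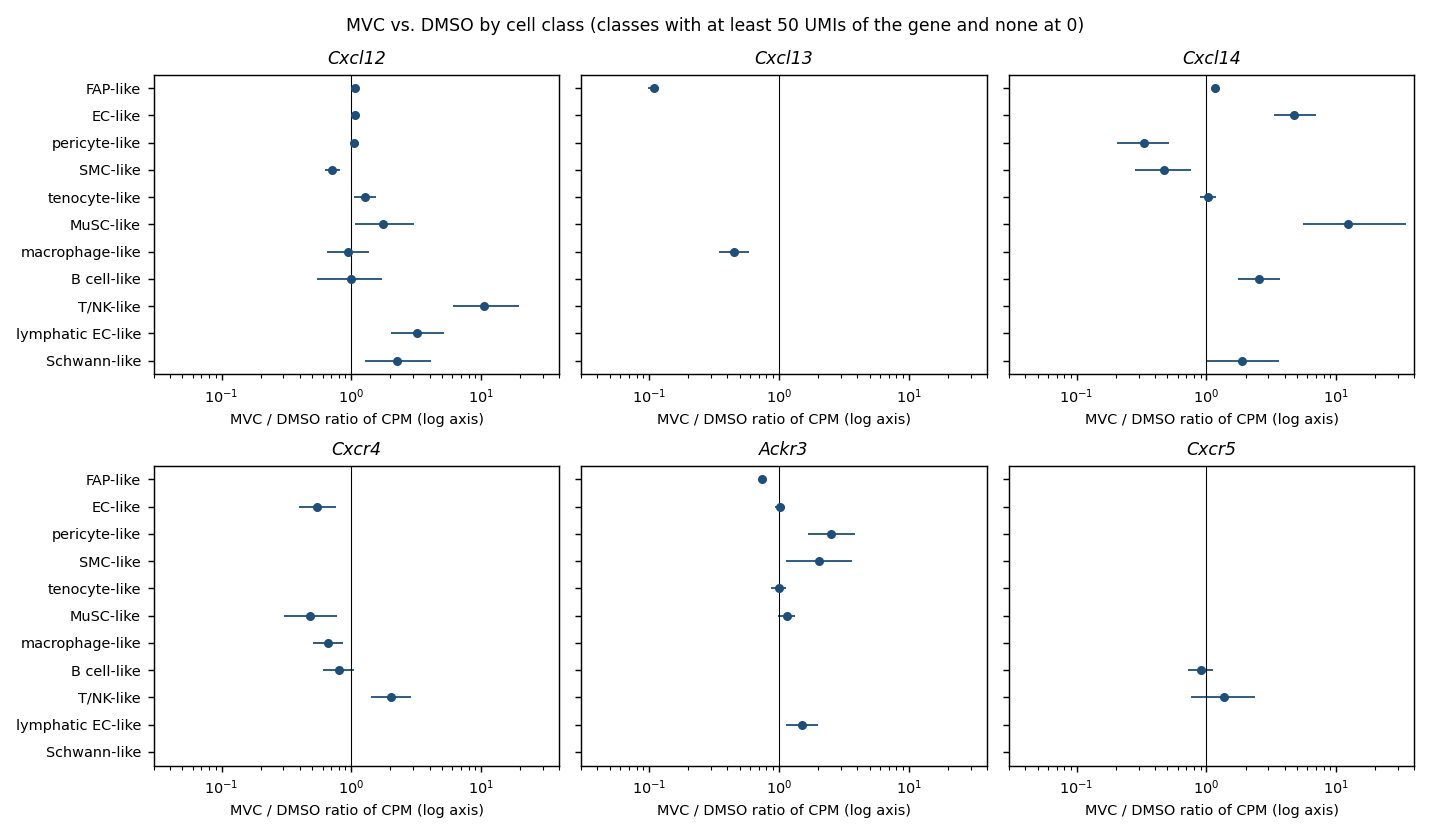
MVC over DMSO ratio of CPM of each member (log axis) in classes with at least 50 UMIs of it and neither library at 0, with 95% counting intervals and a line at no difference. Cxcl13 in FAP-like cells (0.109) was the lowest ratio with narrow intervals, and the highest were Cxcl14 in MuSC-like cells (12.4) and Cxcl12 in T/NK-like cells (10.6).

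The receptors divided between leukocytes and stroma. Cxcr4, the signalling receptor of CXCL12, was highest in B cell-like cells among the classes with at least 50 cells per library, at 139 and 111 CPM, a ratio of 0.801 (0.603-1.06). It was detected in 39.1% and 35.8% of these cells, and in 16.7% (11.9-22.6%) and 17.4% (10.3-26.7%) after thinning. FAP-like cells, the reference for this gene, had 0.740% and 1.32%, or 0.256% and 0.228% after thinning, at a median depth of 10288 and 9175.5 UMIs. Macrophage-like cells had 74.3 and 49.0 CPM, a ratio of 0.659 (0.506-0.857). MuSC-like cells had 41.7 and 20.2 CPM from 43 and 37 UMIs, a ratio of 0.484 (0.303-0.769), the 1 member of the 4 read in this class that was more than 2-fold lower, where 1.68% of genes were. It no longer passed 2-fold as the mean of cells (0.549), by own markers (0.526) or without the 3 richest cells (0.525). The share of MuSC-like cells with a UMI was 18.1% and 10.9%, or 7.91% and 4.07% after thinning. Neutrophil-like cells, 65 and 34 in number, had 73.5 and 123 CPM from 36 and 28 UMIs, a ratio of 1.67 (0.983-2.82).

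In T/NK-like cells Cxcr4 went the other way. There were 87 UMIs in 196 DMSO cells and 52 UMIs in 61 MVC cells, 50.1 and 102 CPM, a ratio of 2.03 (1.41-2.89). The shares were 24.5% (18.6-31.1%) and 47.5% (34.6-60.7%), and 10.9% (6.86-16.2%) and 21.1% (11.4-33.9%) after thinning, a difference of 10.2 percentage points (0.151 to 22.9). Of the 3 members with at least 50 UMIs in T/NK-like cells, Cxcl12 and Cxcr4 were past 2-fold higher, where 6.62% of all genes read were. Cxcr4 fell short of 2-fold by median-ratio scaling (1.98), as the mean of cells (1.84), after thinning (1.76) and without the 3 richest cells (1.96). In EC-like cells Cxcr4 was low, at 12.5 and 6.87 CPM from 129 and 56 UMIs, a ratio of 0.548 (0.393-0.755). The capillary-like cluster, the richest in Cxcl12, carried 52 and 27 of these UMIs, 33.5 and 13.6 CPM, a ratio of 0.404 (0.244-0.655). Its thinned shares were 6.34% (4.02-9.44%) and 2.71% (1.41-4.69%), at a median depth of 3242 and 2849 UMIs.

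Ackr3, the scavenging receptor, was a stromal gene in these cells. Its level was 346 CPM (DMSO) and 254 CPM (MVC) in FAP-like cells, a ratio of 0.735 (0.703-0.768), and FAP-like cells held 68.2% and 59.6% of its UMIs. It was detected in 55.6% (52.8-58.4%) and 51.2% (48.6-53.9%) of them, and in 29.2% (26.6-31.9%) and 26.6% (24.3-29.1%) after thinning. The difference of the shares was -4.38 percentage points (-8.16 to -0.571) with all UMIs and -2.57 points (-6.11 to 0.951) after thinning. Macrophage-like cells, the reference, had 0.704% (0.0178-3.86%) and 1.52% (0.315-4.39%) after thinning, with a median depth of 11189 and 9511.5 UMIs.

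In the DMSO library Ackr3 was highest in the clusters where Cxcl13 was. Its level was lower with MVC in these clusters and also in cluster 5. Cluster 16 had 736 and 550 CPM, a ratio of 0.747, and cluster 10 had 686 and 477 CPM, a ratio of 0.695. Cluster 5 had 180 and 135 CPM, a ratio of 0.750. Cluster 2, the Cxcl14-rich cluster, had 161 and 157 CPM, a ratio of 0.979 (0.888-1.08). After thinning, the share of cells with Ackr3 differed by -12.8 percentage points (-21.9 to -3.49) in cluster 10 and by -5.72 points (-11.1 to -0.182) in cluster 5, and by 1.23 points (-3.53 to 5.83) in cluster 2 and 7.90 points (-5.40 to 20.9) in cluster 16. With each cluster weighted by its UMIs in the DMSO library, the MVC level was 262 CPM and the ratio 0.758. The part of the mix of clusters in the class ratio was not tested.

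MuSC-like cells stood close to FAP-like cells for Ackr3, below them in the DMSO library at 249 CPM and above them in the MVC library at 286 CPM, a ratio of 1.14 (0.984-1.33). After thinning, 25.2% (18.2-33.2%) and 35.0% (29.0-41.3%) of them had a UMI. Lymphatic EC-like cells had 144 and 219 CPM, a ratio of 1.51 (1.14-2.02). Tenocyte-like cells had 122 and 121 CPM and EC-like cells 105 and 107 CPM, with ratios of 0.994 and 1.02. Pericyte-like cells were low in Ackr3, with 37 and 73 UMIs, 24.1 and 60.6 CPM, a ratio of 2.52 (1.68-3.85), where the 2 richest MVC cells had 11 and 10 UMIs.

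Cxcr5, the receptor of CXCL13, was carried mainly by B cell-like cells. B cell-like cells held 62.4% of its UMIs in the DMSO library and 51.2% in the MVC library. The counts were 239 UMIs in 207 DMSO cells and 124 UMIs in 106 MVC cells, and the levels 199 and 179 CPM, a ratio of 0.901 (0.719-1.12). The shares were 56.5% (49.5-63.4%) and 44.3% (34.7-54.3%), and 33.0% (26.6-39.9%) and 25% (16.6-35.1%) after thinning. In the FAP-like reference 0.904% and 1.32% of cells had a UMI, or 0.171% and 0.835% after thinning. T/NK-like cells had 27.1 and 37.1 CPM, a ratio of 1.37 (0.760-2.38). Neutrophil-like cells, 65 and 34 in number, had 47.0 and 43.9 CPM from 23 and 10 UMIs, a ratio of 0.934 (0.397-2.04). In B cell-like cells the difference of the shares was -12.2 percentage points (-23.4 to -0.500) with all UMIs. After thinning it was -8.00 points (-18.3 to 3.48), so that the lower share held beyond counting error only before thinning. Over all cells the level was 9.88 and 6.81 CPM, a ratio of 0.689 (0.584-0.812), while B cell-like cells made up 3.81% of DMSO and 1.94% of MVC cells.

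Genes with the most similar pattern were named for each member by Pearson's r of log2(CPM + 10) over the 11 classes in both libraries, 22 profiles, among 13094 genes. The profiles of a class share its cells' identity in both libraries, so r is a description. For Cxcl12 they were Sept4 (r = 0.93), Tcf15 (0.93), Pcdh19 (0.92), Tnfaip1 (0.92) and Epas1 (0.91). Cxcl13 had the weakest matches, in Ifi207 (0.80), Ifi211 (0.79), Ifi204 (0.78), Bend6 (0.77) and Ecm1 (0.77), the first 3 of them interferon-inducible genes. The match is one between classes. FAP-like cluster 5, with Ifi204 and Ifi211 among its leading genes, had the lowest Cxcl13 of the FAP-like clusters in the DMSO library, at 57.0 CPM. In the MVC library, at 62.8 CPM, it did not. Cxcl14 was matched by Smoc2 (0.93), Pdgfra (0.92), Lum (0.92), Podn (0.90) and Lvrn (0.90), of which Smoc2, Pdgfra and Lum had served to name the FAP-like cells. Cxcr4 was matched by Fam49b (0.94), Slc16a6 (0.93), Cklf, Abraxas2 and N4bp2l1, and Ackr3 by Ptgfrn (0.89), Bmp4 (0.87), Zhx3, Ppl and Mid1. Cxcr5 had the closest, in Tmem163 (0.99), the B cell kinase gene Blk (0.98), the cannabinoid receptor gene Cnr2 (0.97), Mirt1 (0.96) and Nfatc3 (0.95). Between members, Cxcr4 and Cxcr5 gave 0.74, Cxcl13 and Cxcl14 0.47, and Cxcl12 and Cxcr4 -0.46.

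Other genes of the pathway were read from lists in the 2 largest classes. In FAP-like cells 8 of the 12 other CXC chemokines had at least 50 UMIs, and 1 of them was more than 2-fold higher and none more than 2-fold lower, with a median log2 ratio of 0.16 against 0.13 over all genes. That one was Cxcl9, an interferon-induced chemokine that draws T cells, at 3.51 and 30.5 CPM, a ratio of 8.67 (6.39-12.03), and its sister Cxcl10 stood at 58.9 and 80.6 CPM. In EC-like cells 3 of 7 were more than 2-fold higher and none lower, with a median log2 ratio of 0.74 against 0.07. Cxcl9 stood there at 66.4 and 181 CPM and Cxcl10 at 88.5 and 194 CPM, ratios of 2.72 and 2.19. Over all genes read, 2.84% of FAP-like and 2.66% of EC-like genes were more than 2-fold higher, and 0.898% of EC-like genes more than 2-fold lower.

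Lymphotoxin and the non-canonical NF-kB pathway, which drive Cxcl13 in lymphoid stroma, gave no gene past 2-fold among 8 read in FAP-like cells or 7 in EC-like cells. In FAP-like cells Tnfrsf1a, a TNF receptor, stood at 116 and 92.2 CPM and Relb, the pathway's transcription factor, at 150 and 186 CPM. Of the homeostatic CC chemokines and receptors, 4 were read in FAP-like cells and none was past 2-fold, with Ccl19, a lymphoid stroma chemokine, at 25.5 and 37.8 CPM. Of 12 partners in the CXCL12 and MIF axis read in FAP-like cells, Cd74, the MIF receptor and class II chaperone, was higher at 1.98 and 9.64 CPM, and Rgs16, a regulator of G protein signalling, was lower at 10.0 and 4.38 CPM. Over all genes read in FAP-like cells 2.84% were more than 2-fold higher and 1.07% lower. All 9 macrophage markers had UMIs in FAP-like cells, summing to 16.3 and 23.8 CPM, and their part in the Cd74 value was not tested. Of 9 stromal regulators of Cxcl12 none was past 2-fold, with Vcam1, an adhesion molecule, at 47.9 and 89.0 CPM and Foxc1, a transcription factor of CXCL12-rich stroma, at 39.1 and 23.7 CPM.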

How the data were processed

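Raw UMI counts per gene and cell were deposited by the authors for 1 DMSO and 1 MVC library, in separate matrices with no merging, and counting was by Cell Ranger 7.0.0 on mm10 per the submitters' processing notes, which also name Seurat 5.0.1. Cell identities were rebuilt here. The 6 members and all gene lists were chosen with earlier results of these data known. Cells were kept from 500 detected genes upward and up to 10% mitochondrial UMIs. The study states 5437 and 5454 cells, which equals the number kept here. Clustering (Python 3.11.15, leidenalg 0.10.2) used 2000 variable genes without the members and gave 27 clusters. A class was called X-like from at least 3 raised markers of a list. The rebuilt names may differ from those of the study. Doublets were scored against simulated pairs and kept in the main values.

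Summed counts were turned into CPM with exact Poisson intervals, and ratios got exact conditional binomial intervals, shares Clopper-Pearson intervals and share differences intervals by Newcombe's method, each at 95% and for counting error only. A gene was read in a class with at least 50 UMIs over both libraries and called past a 2-fold ratio, with a library at 0 set to 3 counts. Named genes were the members, the 5 genes most like each by correlation among genes with at least 200 UMIs, and up to 4 genes of each list with the largest folds. Others are said to be chosen after their values were seen. Promoter windows were matched to RefSeq by symbol for 5 of the 6 members. The functions were tested on simulated data. Alternatives were a stricter cell filter (1000 genes, 5%), doublets removed, median-ratio scaling, the mean of cells, thinning to 2000 UMIs, cells chosen by their own markers, and leaving out the 3 richest cells. The kept cells held 38748234 (DMSO) and 35518029 (MVC) UMIs.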

Additional observations from a re-analysis of the deposited data

Results flagged for a closer look

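For 4 members, the MVC over DMSO ratio was above 1 in one cell class and below 1 in another, with intervals for counting error that did not reach 1 in either. With 1 library per treatment, none of these differences between classes was tested. The highest and the lowest such class are given for each member, among classes with at least 50 UMIs of it. The share of all genes that meet the same rule was not counted, so the number of members is not read as a trait of the set.

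Cxcl12 had a ratio of 0.711 (0.622-0.812) in SMC-like cells, where the contractile cluster alone gave 1.29 (0.936-1.78) and cells classed by their own markers 1.75, and a ratio of 10.6 (6.02-19.5) in T/NK-like cells, where 3 cells held 64.2% of the MVC UMIs. Cxcl14 had a ratio of 0.329 (0.205-0.510) in pericyte-like cells, where 3 cells held 82.2% of the DMSO UMIs, and of 12.4 (5.54-34.3) in MuSC-like cells, where the 3 richest MVC cells were called doublets and the ratio without doublets was 2.87. Cxcr4 had a ratio of 0.484 (0.303-0.769) in MuSC-like cells, from 43 and 37 UMIs, and of 2.03 (1.41-2.89) in T/NK-like cells, from 87 and 52 UMIs. Ackr3 had a ratio of 0.735 (0.703-0.768) in FAP-like cells, from 4529 and 3478 UMIs, and of 2.52 (1.68-3.85) in pericyte-like cells, from 37 and 73 UMIs. The Ackr3 value in FAP-like cells was the one of these 8 with over 1000 UMIs in each library.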

How the results depend on the processing

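No paired analysis was possible because each treatment had 1 library. For 10 results, 50 of 67 alternatives moved the value by no more than its counting interval, 13 moved it further with no change of side and 4 turned its side. A turn was counted only where the interval of the main value did not reach 1. Cxcl13 stayed lower with MVC throughout, at 0.0598 in Pdgfra-expressing and 0.0749 in FAP-like cells without the 3 richest cells, 0.0956 in FAP-like cells by own markers, and -6.70 percentage points for its share after thinning. Cxcl14 in FAP-like cells was 1.07 by median-ratio scaling, 1.13 as the mean of cells and 1.11 thinned. Ackr3 in FAP-like cells was 0.671, 0.842 and 0.860 in the same order. Cxcl12 in FAP-like cells changed side, at 0.979, 0.998 and 0.987 in that order and 0.984 without the 3 richest cells, and was 1.01 by own markers. In EC-like cells it was 1.02 by median-ratio scaling and 1.15 by own markers. The cause was not tested. Cxcr4 in EC-like (0.519-0.594) and T/NK-like cells (1.76-2.08) and Cxcr5 in B cell-like cells (0.799-1.06) stayed within their intervals. For 16 results added after seeing the data, 78 of 108 alternatives stayed within the interval and 29 moved the value, and Cxcl12 in SMC-like cells turned to 1.75 by own markers. Values whose interval reached 1 also crossed it, which was not counted as a turn. Cxcl13 in FAP-like cluster 5 kept its side in 3 of 6 alternatives, and Cxcr5 in B cell-like cells in 4 of 7. Cxcr4 in B cell-like cells and Ackr3 in EC-like cells each kept it in 6 of 7. Depth limits Cxcr4 in MuSC-like and T/NK-like cells, with under 100 UMIs per library, and the spread between animals was not measured.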

Other observations

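Among the related lists, genes of the classes where the receptors were highest lay past 2-fold in both directions. In B cell-like cells both CXC chemokines read were higher, Cxcl1 at 180 and 460 CPM and Cxcl2 at 55.8 and 216 CPM, as were Cd44 and Rgs1 among 10 partners of the CXCL12 and MIF axis, while 5.84% of all genes read were more than 2-fold higher. FAP markers in the B cell-like cells summed to 507 and 3430 CPM, and their part in these values was not tested. Ltb, which encodes lymphotoxin beta, a signal from lymphocytes to lymphoid stroma, was the 1 gene of 5 in the lymphotoxin and NF-kB list past 2-fold, at 170 and 47.7 CPM, with 2.38% of all genes more than 2-fold lower and a list median log2 ratio of -0.05. In T/NK-like cells 3 of 4 stromal regulators were higher, Vcam1 at 27.6 and 283 CPM, Kitl at 35.1 and 164 CPM and Ebf1 at 81.2 and 287 CPM, where 6.62% of all genes were, beside the FAP and EC markers given above. Ccr7, the receptor that brings naive lymphocytes to lymph nodes, was lower there at 192 and 39.0 CPM, where 4.84% of genes were. In macrophage-like cells Cxcl17 was the 1 of 7 CXC chemokines past 2-fold, on the lower side, at 36.1 and 1.90 CPM from 67 and 4 UMIs, where 2.14% of genes were. The list median log2 ratio was -0.65, and Cxcl3, Cxcl2 and Pf4 had ratios of 0.526, 0.539 and 0.636, short of 2-fold.

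The 375 DMSO and 593 MVC barcodes that did not pass the cell filter held few molecules of the set. Cxcl12 gave 142 and 158 UMIs, 353 CPM (297-416) and 290 CPM (246-338). Cxcl14 gave 112 and 126 CPM and Ackr3 47.2 and 60.5 CPM. Cxcl13 gave 2 and 3 UMIs, 4.97 CPM (0.602-18.0) and 5.50 CPM (1.13-16.1), against 118 and 16.2 CPM in the kept cells.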
